A study of Homo sapiens with 4 samples.

Results

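The keratins that tell luminal from basal cells of the prostate epithelium were followed in LAPC4 cells, an established androgen-sensitive human prostate cancer line. The members were the probe sets whose single gene symbol in the array's annotation was KRT8, KRT18, KRT19, KRT7, KRT5, KRT14, KRT15, KRT17 or KRT23. They were 9 probe sets of 22277, for 8 of the 9 genes and of 11963 genes named by a single symbol. No probe set had KRT17 as its single symbol in the annotation used, and KRT17 was not analysed here. Probe sets given several symbols were not searched for members. Of the 9 probe sets, 7 reached a linear signal of 20 somewhere among the arrays and were kept, 1 for each of 7 genes.

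RNA was taken after 72 hours from cells of 4 conditions, with 1 Affymetrix U133 array each. They were cells with β-TrCP shRNA in CSS (charcoal stripped serum, 10%, depleted of androgens), cells with β-TrCP shRNA in FCS (10% fetal calf serum with 100 pM of the synthetic androgen methyltrienolone), cells with a GFP vector in CSS, and cells with a GFP vector in FCS. The cells carried a lentiviral vector on all arrays, and the shRNA was directed at both β-TrCP genes. The labels give the GFP vector as control, while the study's text describes cells with the inducible shRNA left without doxycycline, so effects of the vector or of doxycycline and of the shRNA cannot be told apart. Each condition had a single array. The precision is limited by the number of arrays, and a difference between 2 conditions has no replicate check. In bulk RNA, fewer cells of a type and less RNA per cell cannot be told apart.

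Keratins are the intermediate filaments of epithelial cells. A type I (acidic) and a type II (basic) keratin pair into a heterodimer, and these assemble into filaments that run to desmosomes and to the basement membrane. In the prostate, the secretory luminal cells carry the simple keratins KRT8 (type II) and KRT18 (type I), while basal cells carry KRT5 (type II) with KRT14 or KRT15 (type I), and KRT19 is found in luminal and in intermediate cells. KRT7 is a simple type II keratin of many ductal epithelia, and KRT23 is a type I keratin that stands in neither group. KRT8, KRT18, KRT7 and KRT5 lie in the keratin cluster on chromosome 12, where KRT8 and KRT18 are neighbours, and KRT19, KRT14, KRT15 and KRT23 in that on chromosome 17, where KRT15 and KRT19 are.

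RefSeq promoter windows (GRCh38.p14, 250 bases before to 50 bases after a gene's start) were at hand for 2 of the 9 members, a luminal and a basal type II keratin, and are shown because these genes stand for the 2 cell types compared. The window of KRT8 is chr12:52926420-52926719 and that of KRT5 is chr12:52520345-52520644, each on the minus strand and printed 5′ to 3′.
KRT8: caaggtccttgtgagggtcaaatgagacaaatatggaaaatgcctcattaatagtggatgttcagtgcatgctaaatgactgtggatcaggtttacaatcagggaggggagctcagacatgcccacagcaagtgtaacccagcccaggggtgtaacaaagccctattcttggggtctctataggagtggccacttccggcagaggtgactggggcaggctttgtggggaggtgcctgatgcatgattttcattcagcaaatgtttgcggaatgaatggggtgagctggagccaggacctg
KRT5: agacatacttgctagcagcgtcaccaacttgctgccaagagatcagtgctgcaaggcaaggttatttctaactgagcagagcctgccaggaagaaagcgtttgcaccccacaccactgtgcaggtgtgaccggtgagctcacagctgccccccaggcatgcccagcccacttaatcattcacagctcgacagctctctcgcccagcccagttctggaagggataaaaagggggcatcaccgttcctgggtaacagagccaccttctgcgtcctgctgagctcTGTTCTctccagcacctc
Capitals mark exact matches on either strand to TATAAA (the TATA box), GGGCGG (the GC box), TGACTCA (the AP-1 site) or AGAACA (a part of the androgen response element, not the whole). Of 35116 RefSeq windows of this length, 11.5%, 45%, 4.95% and 14.8% held each of these, in that order. The window of KRT5 held 1 match, to AGAACA on the opposite strand beyond the start, and that of KRT8 held none, which says only that these letters are not in this window.

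The targets of the shRNA, 2 substrate-binding subunits of a ubiquitin ligase, were lower on both shRNA arrays. FBXW11 (β-TrCP2) read 4.68 on the normalized log2 scale with shRNA in CSS and 5.02 with shRNA in FCS, against 8.19 in control cells in CSS and 8.02 in control cells in FCS. With the shRNA, its second probe set gave -0.95 in CSS and -1.34 in FCS. BTRC (β-TrCP1) was at the floor of 4.32 on both shRNA arrays, against 4.64 in control cells in CSS and 4.497 in control cells in FCS. BTRC was thus near the floor in control cells too, and its changes of -0.32 in CSS and -0.18 in FCS are lower limits of the fall. The array of shRNA cells in CSS stood apart: over all probe sets its Pearson correlation with the other 3 was 0.946 to 0.948, against 0.985 to 0.992 among those, and 35.0% of its values lay under a signal of 20, against 41.7% to 42.0%. The comparisons that use that array are both treatments against neither, the shRNA in CSS, and CSS in shRNA cells. For each comparison the local spread is given beside a change. It was taken as the scaled median absolute deviation between the same 2 arrays over 1000 probe sets of like brightness, and is no replicate error.

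KRT8 and KRT18, the luminal pair, were higher in CSS than in FCS in both kinds of cells. The normalized log2 signal of KRT8 was 9.79 with shRNA in CSS, 9.22 with shRNA in FCS, 9.90 in control cells in CSS and 9.17 in control cells in FCS. Its 2 arrays in CSS were the high ones and its 2 arrays in FCS the low ones. In control cells KRT8 was 1.67-fold higher in CSS (log2 change 0.74, local spread 0.30), which placed it at rank 146 by size of change among the 7605 genes measured above the floor in both. In shRNA cells KRT8 was 1.49-fold higher in CSS (0.58, local spread 0.28), at rank 2332 of 7127 genes. KRT18, its type I partner, had log2 signals of 11.54 with shRNA in CSS, 11.21 with shRNA in FCS, 11.60 in control cells in CSS and 11.29 in control cells in FCS. The order of the arrays was close to that of KRT8, again with both CSS arrays above both FCS arrays. KRT18 was 1.23-fold higher in CSS in control cells (0.30, local spread 0.20, rank 1804 of 7605 genes). In shRNA cells KRT18 was 1.26-fold higher in CSS (0.33, local spread 0.20, rank 3833 of 7127 genes). KRT8 was thus higher by more than its partner in each kind of cell, by 0.43 in control cells and 0.24 in shRNA cells on the log2 scale. The gap in shRNA cells was 0.08 with the values as deposited or with a common median. With the shRNA the luminal pair differed little from control cells. KRT8 differed by -0.11 in CSS and 0.05 in FCS, and KRT18 by -0.05 and -0.08, all within the local spread.

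**Figure D1:**
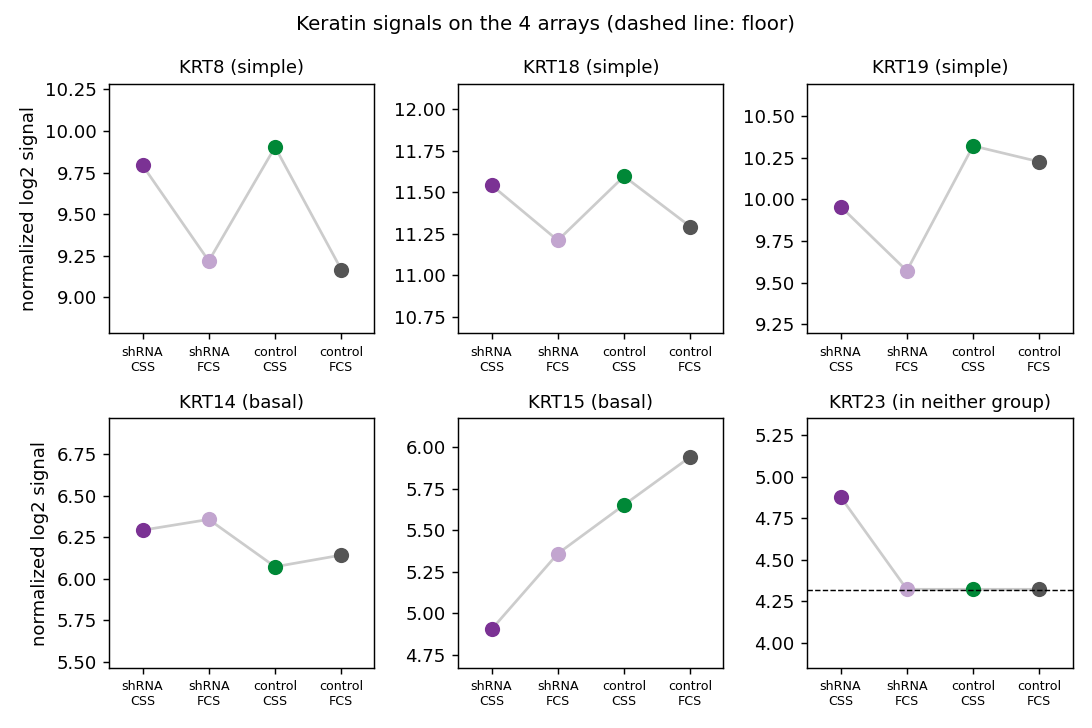
Normalized log2 signal (vertical axis, 1.5 log2 units in every panel) of 6 keratins on the 4 arrays (horizontal axis), 1 point per array; the dashed line is the floor of 4.32. KRT8 and KRT18 are high on both CSS arrays, KRT19 is low on both shRNA arrays, and KRT15 is at 4.90 with shRNA in CSS against 5.94 in control cells in FCS.

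KRT8 and KRT18 were each measured by a single probe set, of the kind that Affymetrix marks (_x_at) for probes that can also bind related sequences, and processed pseudogenes of KRT8 and KRT18 are many. The pseudogene KRT8P12, with a probe set of its own, had log2 signals of 5.83 with shRNA in CSS, 4.74 with shRNA in FCS, 4.69 in control cells in CSS and 4.56 in control cells in FCS. It was high on the array that stood apart, and in control cells it differed by 0.14 between CSS and FCS.

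KRT19, the type I keratin without the usual tail domain, was lower with the shRNA in either serum. Its log2 signal was 9.96 with shRNA in CSS and 9.57 with shRNA in FCS, against 10.32 in control cells in CSS and 10.23 in control cells in FCS. Both shRNA arrays lay under both control arrays. KRT19 was 1.58-fold lower with the shRNA in FCS (-0.66, local spread 0.28, rank 375 of 7616 genes). In CSS it was 1.29-fold lower (-0.36, local spread 0.25, rank 3513 of 7116 genes). CSS gave a log2 change of 0.10 in control cells, within the local spread of 0.28, and of 0.39 in shRNA cells, with a local spread of 0.26. With both treatments KRT19 stood at -0.27 against control cells in FCS, while its changes with CSS alone and the shRNA alone sum to -0.56. In FCS the shRNA change of KRT19 differed from that of KRT18, another type I keratin, by -0.57 on the log2 scale.

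KRT15, a type I keratin of basal cells, was lower with either treatment and lowest with both. Its log2 signal was 4.90 with shRNA in CSS, 5.36 with shRNA in FCS, 5.65 in control cells in CSS and 5.94 in control cells in FCS. The highest array was thus control cells in FCS, and the 2 shRNA arrays lay under the 2 control arrays. Against control cells in FCS, KRT15 was 2.05-fold lower with both treatments (-1.04). Its log2 change was -0.58 with the shRNA alone, and it was 1.22-fold lower with CSS alone (-0.29). The local spread was 0.23 for the shRNA and 0.24 for CSS, but 1.07 for both treatments, so that the change with both lay within it. In CSS the shRNA gave -0.75, and in shRNA cells CSS gave -0.46, within local spreads of 1.05 and 1.06. With the shRNA in FCS, the change of its neighbour KRT19 differed from that of KRT15 by -0.07.

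KRT14, the usual type I partner of KRT5 in basal cells, differed little between arrays. Its log2 signal was 6.29 with shRNA in CSS and 6.36 with shRNA in FCS, against 6.07 in control cells in CSS and 6.14 in control cells in FCS. The shRNA arrays were the higher ones, by 0.22 in CSS and 0.21 in FCS, within local spreads of 0.73 and 0.28. Its 4 arrays spanned 0.28 on the log2 scale. With the values as deposited, the shRNA difference in CSS was -0.22.

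**Figure D2:**
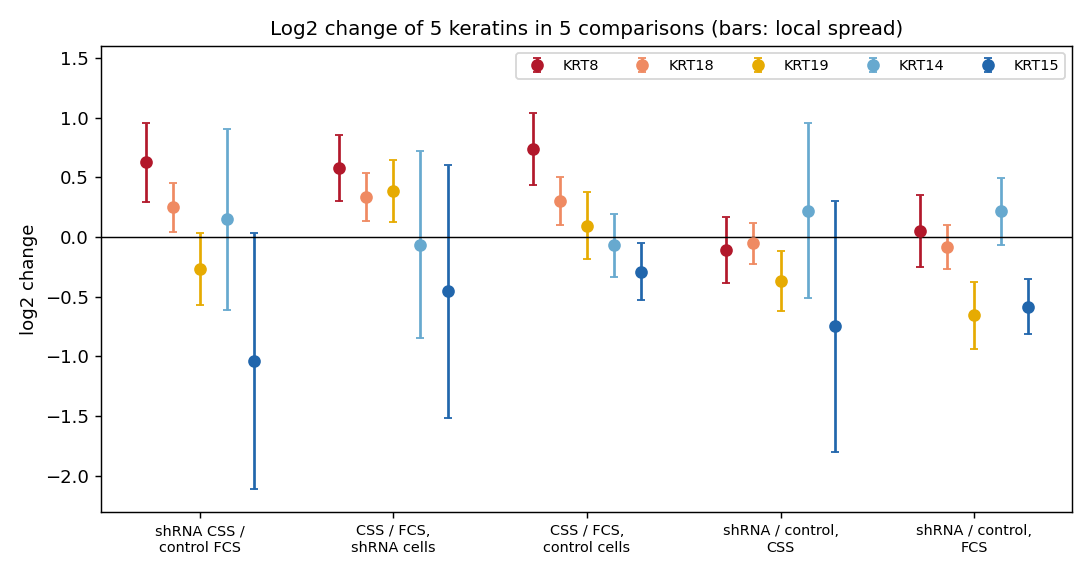
Log2 change (vertical axis) of the 5 keratins above the floor on all arrays, in 5 comparisons between 2 arrays each (horizontal axis); bars are the local spread on either side, not a replicate error. KRT8 lies at 0.63, 0.58 and 0.74 in the 3 comparisons that set CSS against FCS, and KRT19 at -0.36 and -0.66 in the 2 that set the shRNA against control cells in 1 serum.

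KRT5, KRT7 and KRT23 were dim. KRT5, the basal type II keratin, had deposited log2 values of 4.42 with shRNA in CSS, 3.96 with shRNA in FCS, 3.91 in control cells in CSS and 4.003 in control cells in FCS. It passed the filter through the array that stood apart alone and lay under the floor of 4.32 on all arrays once normalized, so it has no fold. KRT7 had 2 probe sets, which read 4.24 and 4.31 with shRNA in CSS, 4.04 and 4.06 with shRNA in FCS, 4.14 and 3.99 in control cells in CSS and 3.896 and 4.03 in control cells in FCS, all under a signal of 20. KRT23 read 4.91, 4.03, 3.76 and 3.59 on the same arrays in that order. It too passed the filter only through shRNA cells in CSS, where it was at least 1.47-fold higher than in any other condition. Without a floor, its normalized difference between shRNA cells in CSS and control cells in FCS was 1.31 on the log2 scale.

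Most dim keratins read highest on that array. Of 36 keratin probe sets, members and others, 25 lay under a signal of 20 on the other 3 arrays, and 21 of the 25 (84%) were highest with shRNA in CSS, against 62.7% of the 8634 such probe sets of the whole array. The 4 dim member probe sets were all highest there. KRT9, a keratin of palm and sole skin, had a deposited log2 value of 5.04 with shRNA in CSS and values of 3.85, 3.85 and 3.94 on the other 3. The part of the array's wider background of dim values in the reading of KRT23 was not tested.

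**Figure D3:**
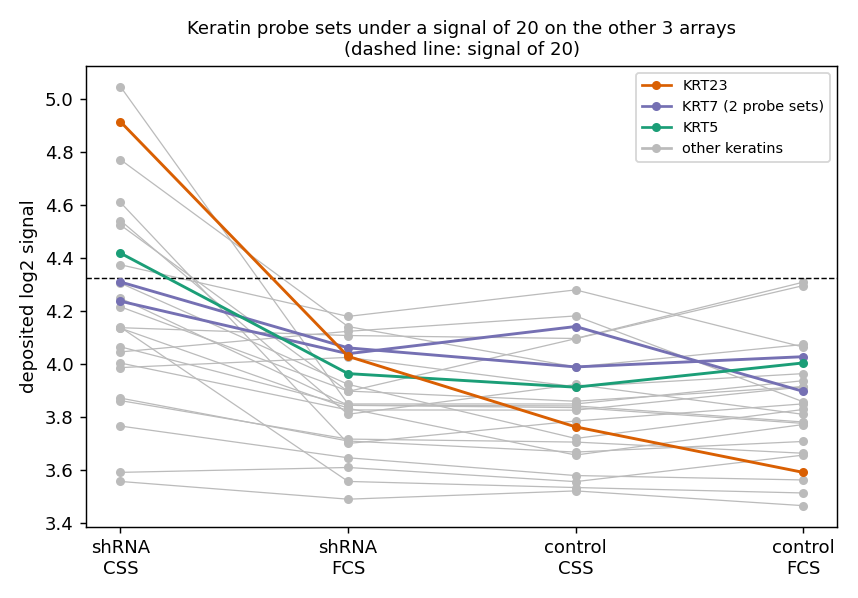
Deposited log2 signal (vertical axis) on the 4 arrays (horizontal axis) of the 25 keratin probe sets under a signal of 20 (dashed line) on the 3 arrays other than shRNA in CSS; each line is a probe set, and grey lines are keratins that are no members. KRT23 reads 4.91 with shRNA in CSS, and 21 of the 25 lines are highest there.

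Set side by side, the simple keratins had higher median changes than the basal ones with CSS and with both treatments, over 3 and 2 genes, while their order with the shRNA depended on how dim values and members were treated. The 3 simple keratins with a value (KRT8, KRT18 and KRT19) had a median log2 change of 0.30 with CSS in control cells, 0.39 with CSS in shRNA cells and 0.25 with both treatments, while the 2 basal ones (KRT14 and KRT15) had -0.18, -0.26 and -0.44. The median of all genes lay between -0.01 and 0.02 in the 5 comparisons. With the shRNA the groups lay closer, at -0.11 and -0.26 in CSS and at -0.08 and -0.18 in FCS. The members of a group differed among themselves: with the shRNA in FCS, KRT19 stood at -0.66 and KRT8 at 0.05. With both treatments the change of KRT15 differed from that of KRT14 by -1.19. With KRT8 and KRT18 set against KRT14 alone, the order turned for the shRNA, at -0.08 against 0.22 in CSS and at -0.02 against 0.21 in FCS. Without a floor, where KRT5 also has a value, it turned as well, at -0.11 for the simple and 0.22 for the basal keratins in CSS and at -0.08 and -0.04 in FCS. Both settings also turned the sign of the basal median with both treatments, to 0.15, which was still under the simple one.

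By size, few keratins passed a fold threshold. No member was 2-fold higher or lower with CSS in control cells, where 0.163% of all genes were 2-fold higher and 0.138% lower. None was with the shRNA in FCS, where 0.802% were higher and 0.401% lower. With both treatments 1 of 6 members with a fold, KRT15, was 2-fold lower, against 6.91% of all genes, and none was 2-fold higher, against 7.95%. None was 2-fold higher or lower with the shRNA in CSS (7.77% and 6.73% of all genes) or with CSS in shRNA cells (7.9% and 6.64%).

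At 1.5-fold, KRT8 was the 1 of 5 members higher with CSS in control cells, where 2.46% of all genes were higher, and none was lower, against 2.23%. KRT19 was the 1 of 5 lower with the shRNA in FCS, against 3.35% of all genes, and none was higher, against 3.21%. KRT15, at 1.497-fold, lay just under this threshold there. With both treatments 1 of 6 members, KRT8, was higher and 1, KRT15, was lower, where 18.2% of all genes were higher and 16.3% lower. With the shRNA in CSS none was higher and 1 of 6, KRT15, was lower, where 16.7% of all genes were higher and 16.4% lower. None was higher or lower with CSS in shRNA cells, where 17.4% of all genes were higher and 16% lower, and KRT8 lay just under the threshold at 1.49-fold.

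The main effects of serum and shRNA were tested over all 4 arrays with limma, in an additive model with 1 residual degree of freedom that counts any interaction as error. KRT8 had a main effect of 0.66 for CSS (SE 0.07, adjusted p = 0.698), KRT18 of 0.32 (SE 0.04, adjusted p = 0.698), and KRT19 of -0.51 for the shRNA (SE 0.10, adjusted p = 0.708). None of the 7 members passed the threshold of 0.05, and none of the 15678 probe sets did (0% in each direction), although 832 for CSS and 897 for the shRNA had an unadjusted p under 0.05. The fit included probe sets at the floor on all arrays, whose variance is 0. Without them (15082 probe sets, chosen after seeing the data), KRT8 and KRT18 passed for CSS (adjusted p = 2e-06 and 0.00315) and KRT19 for the shRNA (adjusted p = 3.3e-05), with 336 and 481 probe sets called in all. In that fit the variances came from the trend on mean signal alone, and KRT15 did not pass (adjusted p = 0.719 for the shRNA).

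**Figure D4:**
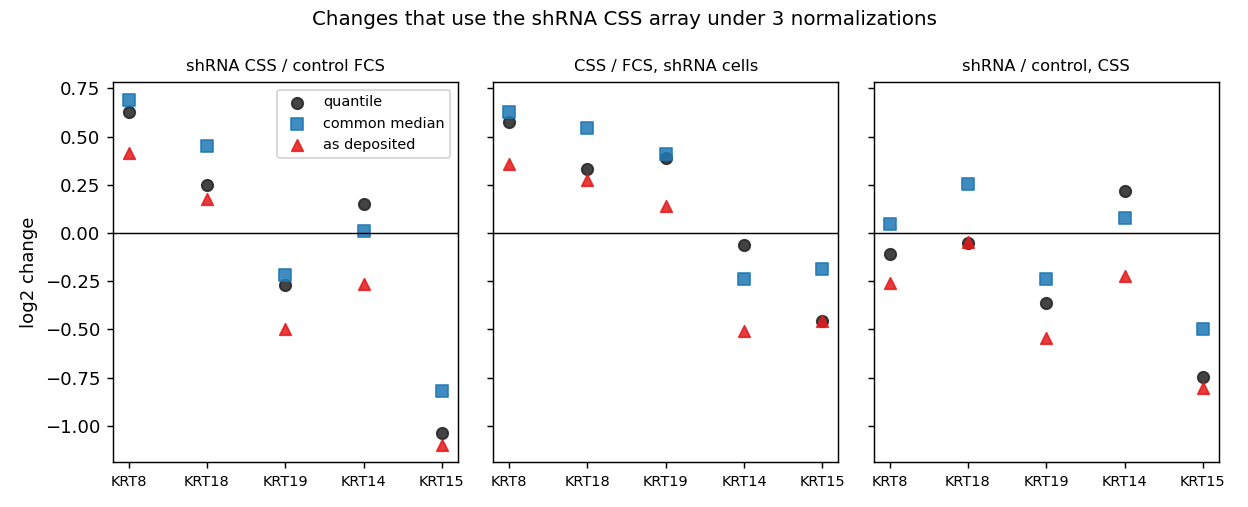
Log2 change (vertical axis) of 5 keratins (horizontal axis) in the 3 comparisons that use the array of shRNA cells in CSS, with quantile normalization (circles), a common median (squares) and the values as deposited (triangles). KRT8 lies above 0 with both treatments and with CSS in shRNA cells, at 0.41 and 0.36 as deposited, while KRT14 lies at 0.15, 0.01 and -0.27 with both treatments.

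Scaling bears on the comparisons with shRNA cells in CSS. With the values as deposited, the median change of all genes moved to -0.29 with both treatments, -0.34 for the shRNA in CSS and -0.31 for CSS in shRNA cells. Relative to those medians KRT8 and KRT18 were higher in CSS in shRNA cells under each scaling, with changes of 0.36 and 0.27 as deposited and of 0.63 and 0.54 with a common median. KRT19 differed with the shRNA in CSS by -0.54 as deposited, beside a median of -0.34, and by -0.24 with a common median. KRT18 in that comparison stood at 0.26 and KRT8 at 0.05 with a common median, opposite in sign to the values above.

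Few of the other keratins were measured. Of 24 further keratin genes, 14 lay under a signal of 20 on all arrays, and 4 reached it on all: KRT10, KRT16, KRT32 and KRT83. KRT10, a type I keratin of differentiating epidermis, had log2 signals of 8.10 with shRNA in CSS, 7.45 with shRNA in FCS, 7.91 in control cells in CSS and 7.89 in control cells in FCS in its leading probe set. It was lowest with shRNA in FCS, by -0.45 against control cells with a local spread of 0.34, and its other 2 probe sets gave -0.53 and -0.21. KRT16, a keratin of stressed epidermis, and KRT32, a hair keratin, differed by at most 0.37 in any comparison with control cells.

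Genes whose products bind keratins or form the junctions that hold them were counted by the sign of their change. Of 12 with a value with both treatments, 9 were higher and 3 lower (median 0.33, against 0.02 for all genes), none by 2-fold, where 51.2% of all genes were higher. By sign, 9 of 13 were higher with CSS and with the shRNA alone (medians 0.11 and 0.16), against 53.3% and 49.7% of all genes. DSP (desmoplakin), which ties keratins to desmosomes, had log2 signals of 9.48 with shRNA in CSS, 9.34 with shRNA in FCS, 9.18 in control cells in CSS and 8.77 in control cells in FCS. Control cells in FCS were the low array, and with both treatments DSP was 1.64-fold higher (0.71, local spread 0.36). PPL (periplakin), which links desmosomes with filaments, differed by 0.71 with both treatments, 0.48 with the shRNA in FCS and 0.56 with CSS in control cells, against local spreads of 0.73, 0.29 and 0.27. EVPL (envoplakin), a related plakin, differed by 0.66 with both treatments, within a local spread of 1.06. TRADD, a death receptor adaptor that binds KRT18, differed with both treatments by 0.98 in its brighter probe set and -0.37 in its dimmer one. All partner changes against control cells in FCS share that array.

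Among transcription factors that act on epithelial keratin genes, KLF5 and OVOL1 had the largest changes with both treatments of those above the floor on all arrays. KLF5, a Krüppel-like factor of basal and luminal progenitors, was 2.43-fold higher with both treatments in its brighter probe set (1.28, local spread 0.51), but its other probe set gave -0.26. With the shRNA in FCS its probe sets gave 0.81 and 1.34. EHF, an ETS factor of luminal epithelium, had log2 signals of 7.68 with shRNA in CSS, 8.65 with shRNA in FCS, 7.77 in control cells in CSS and 8.55 in control cells in FCS, lower on both CSS arrays where KRT8 was higher. CSS gave -0.97 in shRNA cells (local spread 0.39) and -0.79 in control cells (local spread 0.32). OVOL1, a zinc finger factor of epithelial differentiation, differed by 1.16 with both treatments (local spread 1.07) and NOTCH1, a receptor, by 0.68, within its local spread. Of 13 such genes with a value, 9 were higher and 4 lower with both treatments (median 0.09), where 51.2% of all genes were higher. With CSS in control cells 10 were higher and 3 lower, against 53.3% of all genes higher. With the shRNA in FCS 11 were higher and 2 lower, against 49.7%. With the shRNA in CSS 5 were higher and 8 lower (median -0.07), against 48.9%. With CSS in shRNA cells 7 were higher and 6 lower, against 50.8%.

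The luminal label was checked against markers beside the keratins. Of 12 luminal markers on the array 10 passed the filter, and 9 were above the floor with shRNA in CSS, 10 with shRNA in FCS, 9 in control cells in CSS and 10 in control cells in FCS. With both treatments 5 were higher and 4 lower (median 0.10), where 51.2% of all genes were higher. With the shRNA in FCS 3 were higher and 7 lower (median -0.29), against 49.7% of all genes higher. The shRNA in CSS gave 5 higher and 4 lower (median 0.06), against 48.9%. KLK2 and KLK3, secreted kallikreins, differed with the shRNA by -2.41 and -1.37 in CSS and by -1.23 and -0.98 in FCS. These are their brightest probe sets, and the others gave -1.37 and -0.63 for KLK2 and -1.99 for KLK3 in CSS. In FCS the others gave -1.18 and -1.07 for KLK2 and -0.95 for KLK3. With CSS in control cells KLK2 and KLK3 differed by 0.70 and 0.73. Their other probe sets were higher there too, by 0.47 and 0.18 for KLK2 and 1.03 for KLK3. In the same comparison TMPRSS2, a surface protease, stood at -0.48 and HOXB13, a homeobox factor, at -0.24. Of the luminal markers with a value, 5 were higher and 4 lower (median 0.08), where 53.3% of all genes were higher. Whether CSS lowered the cells' response to androgen was not tested. CDH1 and EPCAM, epithelial adhesion proteins, read 9.20 to 9.73 and 9.70 to 9.95 over the arrays, while FOLH1 and MSMB lay under a signal of 20 on all.

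Of 12 basal markers 8 passed the filter, LAMB3 and S100A2 only through shRNA cells in CSS. CD44, NGFR, CAV1 and DKK3 lay under a signal of 20 on all arrays. GSTP1, the brightest of the basal markers, read 9.54 to 9.59 over the arrays, and EGFR read 6.52 to 7.15 in its leading probe set. Basal markers above the floor numbered 8 with shRNA in CSS, 6 with shRNA in FCS, 5 in control cells in CSS and 6 in control cells in FCS. With both treatments 3 were higher and 3 lower (median 0.13). ITGA6, the basal integrin α6, differed with the shRNA by -0.70 in CSS and -0.69 in FCS (local spreads 0.54 and 0.30), and its second probe set gave -1.40 and -0.46. ITGB4, its integrin β4 partner, differed with the shRNA by 0.05 in CSS and 0.05 in FCS. It was higher with CSS than with FCS, by 0.60 in shRNA cells and 0.60 in control cells (local spreads 0.82 and 0.27). DST (dystonin), which holds keratins at the hemidesmosome, differed by 1.39 with the shRNA in FCS, with 0.80, 1.51 and 0.07 in its other probe sets. In CSS its leading probe set gave -0.44, with 1.54, -0.59 and 0.06 in the others, so that its direction with the shRNA differed between sera and probe sets.

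Of other intermediate filaments, 4 had a value with both treatments, 3 higher and 1 lower (median 0.45), where 51.2% of all genes were higher. Of the lamins, filaments of the nucleus, LMNB1 stood at -0.76 and LMNA at 0.40, each within its local spread (0.80 and 0.58). DES (desmin), the muscle filament, stood at 1.16 (local spread 0.87). VIM (vimentin), the filament of mesenchymal cells, was at the floor on all arrays. Of 10 mesenchymal markers 5 were above the floor with shRNA in CSS, 4 with shRNA in FCS and 5 in each control, with summed signals of 272, 218, 257 and 211 on these arrays in that order. Leukocyte markers above the floor numbered 2 of 6 with shRNA in CSS and 0 on the other arrays, and PTPRC was under a signal of 20 on all. Neuroendocrine markers numbered 3 of 8 with shRNA in CSS, 2 with shRNA in FCS and 1 in each control. Over all genes, 8.34% were above the floor with shRNA in CSS alone, and the part of this in the readings of dim keratins was not tested.

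KRT15 had the widest range over the arrays of the members above the floor on all of them. Among 6961 other such genes, those nearest to its pattern over the 4 arrays were ABCC1, PPOX, ETFDH, ARMCX5 and ZSWIM8, with root mean square differences of 0.02 to 0.05 on the log2 scale after each gene was centred. ABCC1, a drug efflux pump, differed by -1.04 with both treatments, -0.62 with the shRNA and -0.27 with CSS. With 4 arrays and so many genes, likeness of pattern is a description only.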

How the data were processed

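The deposited values are log2 signals of all probe sets of 4 arrays. The authors name MAS5, followed by a present-call filter with an intensity of 20 or more, log2 values and quantile normalization. The deposited columns hold all probe sets and do not share a distribution, so the intensity filter and the normalization were applied here, without the present calls, which were not used: the 15678 probe sets that reached 20 on any array were quantile normalized, and lower values were raised to a floor of 20. Whether the values are MAS5 signals unchanged was not tested. A single symbol was given to 19070 probe sets, 1043 had more than 1 and 2164 had none, and symbols were updated through a RefSeq table. Each of 9193 genes was read from its brightest probe set. A change with 1 of 2 arrays at the floor is a bound, and with both it has no fold. Main effects came from limma 3.58.1 (R 4.3.3) with a variance trend and Benjamini-Hochberg adjustment over all kept probe sets. The limma step was tested on simulated data with equal noise at all brightness and no array standing apart. It called 12 of 100 probe sets changed 2-fold and 99 of 100 changed 4-fold, with 0 false calls. Changes under 2-fold, the size of the main effects of the keratins, were not simulated. Elsewhere pandas 2.3.3 under Python 3.11.15 served. Members and lists were chosen with earlier results of these data known. The genes named are the members, the shRNA targets, from each list the 4 or fewer that differed most with both treatments, and the 5 genes nearest in pattern to KRT15. KRT9, KRT83, KRT8P12 and markers near or under the floor, with CDH1, EPCAM and GSTP1, were named after their values were seen. Alternatives were other scalings, floors, filters and fold thresholds, the mean over probe sets, the KRT8 and KRT18 and the KRT5 and KRT14 pairs alone, and limma without the trend.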

Additional observations from a re-analysis of the deposited data

Results flagged for a closer look

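Each of these genes differed in opposite directions in 2 settings, in its brightest probe set. The difference was not tested, with 1 array per condition. With the shRNA, KRT8 differed by -0.11 in CSS and by 0.05 in FCS, a difference of -0.16, each within the local spread. With the shRNA, TRADD differed by 0.87 in CSS and by -0.34 in FCS, a difference of 1.21 in its brighter probe set. With CSS, KLK2 differed by -0.48 in shRNA cells and by 0.70 in control cells, a difference of -1.18 in its brightest probe set, while its other 2 probe sets gave 0.28 and 0.62 with CSS in shRNA cells.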

How the results depend on the processing

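Of 140 alternative values of single keratin changes, 138 lay within the local spread of the value given. Other floors and filters returned the value given wherever they gave one, so only the other scalings moved it. The local spread was as wide as 1.07, for KRT15 with both treatments. Of the 140, 4 had the opposite sign. These were KRT14 as deposited with both treatments (-0.27) and with the shRNA in CSS (-0.22), and KRT8 (0.05) and KRT18 (0.26) with a common median for the shRNA in CSS. KRT18 stood at 0.54 for CSS in shRNA cells with a common median. Of the group medians, 6 alternatives had the opposite sign. The basal median was 0.15 with both treatments and 0.22 with the shRNA in CSS, each without a floor and from KRT14 alone, and 0.21 with the shRNA in FCS from KRT14 alone. The simple median was 0.05 with the shRNA in CSS with a common median. The simple median was not above the basal one in 4 of 32 alternatives, all for the shRNA in 1 serum. The count of members 2-fold lower with both treatments became 0 with a common median, a floor of 100, a signal of at least 100 or a 3-fold threshold, and the count 2-fold higher with both treatments, or with the shRNA in CSS, became 1 without a floor (KRT23). At 1.5-fold, 1 member was higher with CSS in control cells, 1 was lower with the shRNA in FCS, 1 was higher with both treatments and 1 was lower with the shRNA in CSS. In limma, 2 members passed for CSS and 1 for the shRNA without a floor, with a signal of at least 100, or, chosen after seeing the data, without probe sets or genes at the floor on all arrays. None passed with the values as deposited, with the brightest probe set of each gene or without the trend, where KRT8 had adjusted p values for CSS of 0.685, 0.695 and 0.695. The mean over probe sets changed no median, since each keratin above the floor has 1 probe set. No paired analysis was possible because no condition has a second array. The arrays' small number and the distance of dim keratins from the floor limit the precision.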
